A study of Mus musculus with 24 samples.

Results

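Persistent unacetylated H3K4me1 sites are stretches of the genome that carried an H3K4me1 peak with and without doxycycline and no H3K27ac peak in either condition. They were taken from the peak list of untreated cells by 5 criteria: a width of at least 1000 bp, an overlap of at least 1 bp with an H3K4me1 peak of treated cells, no overlap with an H3K27ac peak of either list, more than 1000 bp to every annotated end of a protein-coding gene, and a place on an assembled chromosome of mm10. Of 119362 untreated H3K4me1 peaks, 56627 reached the width, 41454 of these lay away from gene ends, 38802 of these had a treated counterpart, and 25333 of these had no H3K27ac peak. The 25333 sites were 21.2% of all untreated peaks and 65.3% of the wide, distal peaks with a counterpart (exact Clopper-Pearson 95% interval 64.8% to 65.8%, which here as elsewhere covers counting error over peaks only). They covered 47.6 Mb, or 25.9% of the 184 Mb under untreated H3K4me1 peaks.

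The cells were mouse TgSpi1 erythroleukaemic cells of bone marrow origin, grown with erythropoietin (EPO), that overexpress the transcription factor SPI1 from a transgene and carry a doxycycline-inducible short hairpin RNA against Spi1. One group was left untreated and the other received doxycycline for 48 h. Both carried the transgene and the hairpin, and no group received doxycycline without the hairpin, so lower SPI1 cannot be told apart from effects of doxycycline itself or of expressing a hairpin. Of the 24 samples of the series, 4 peak lists were used: H3K4me1 from 1 replicate per condition, and H3K27ac from replicates 1 and 2 together per condition.

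There was thus 1 list per mark and condition, and no difference between conditions has a replicate error or a test. Read depth is unknown, and a site without a listed H3K27ac peak is not shown to lack the mark. The untreated H3K4me1 list had 119362 peaks with a median width of 903 bp, and the treated list had 101388 peaks with a median of 1153 bp over 195 Mb. The part of this difference between whole lists in the width ratios given here was not tested. The H3K27ac lists had 28902 and 23341 peaks over 41.5 and 41.2 Mb. As a check of the labelled cell type, 7 of 12 erythroid marker genes had H3K27ac within 1000 bp of a gene end in the untreated list and 11 of 12 in the treated list, where 46.5% and 45.8% of all protein-coding genes had it. The same was true of 2 and 1 of 8 myeloid markers, 3 and 4 of 5 megakaryocyte markers, 1 and 1 of 5 B cell markers, 1 and 1 of 5 T cell markers, and 0 and 0 of 5 endothelial and stromal markers. The untreated erythroid count was thus not far above the share of all genes, and the megakaryocyte counts were of like height.

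Monomethylation of lysine 4 of histone H3 is laid down mainly by the MLL3 and MLL4 methyltransferases and marks enhancers, whether they are in use or not. Acetylation of lysine 27, made by p300 and CBP, is added at enhancers and promoters that are in use, and distal regions with the first mark and without the second are often described as primed or poised enhancers. SPI1, also called PU.1, is an ETS family factor of myeloid and B cells that binds purine-rich sites and must fall for red cells to mature, whereas GATA1, TAL1 and KLF1 drive the erythroid programme.

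A small number of the sites contained a RefSeq transcript start, and the sequences before these starts give a view of DNA inside the sites. The 300 bp window from 250 bp before to 50 bp after a start lay inside a site for 513 starts, 370 of long non-coding RNAs and 143 of protein-coding genes. The 8-base SPI1 motif GAGGAAGT or the GATA motif AGATAAG, on either strand, occurred in the 250 bases before the start of 43 of them, of which 8 belonged to protein-coding genes, with 1 chromosome not read for this count. The 5 shown here were picked from those 8 after their values were seen, as examples of both motifs, and the widths of the other 3 are given after them. Each is written 5′ to 3′ on the strand of its gene, with motif matches on either strand in capitals (GRCm38.p6, the assembly behind mm10).
Ifit1bl1, minus strand, chr19:34599428-34599677: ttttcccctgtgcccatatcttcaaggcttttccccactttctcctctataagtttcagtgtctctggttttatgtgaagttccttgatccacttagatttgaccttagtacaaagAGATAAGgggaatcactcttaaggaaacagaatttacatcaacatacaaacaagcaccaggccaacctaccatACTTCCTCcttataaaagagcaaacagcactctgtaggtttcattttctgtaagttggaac
Rassf5, minus strand, chr1:131200186-131200435: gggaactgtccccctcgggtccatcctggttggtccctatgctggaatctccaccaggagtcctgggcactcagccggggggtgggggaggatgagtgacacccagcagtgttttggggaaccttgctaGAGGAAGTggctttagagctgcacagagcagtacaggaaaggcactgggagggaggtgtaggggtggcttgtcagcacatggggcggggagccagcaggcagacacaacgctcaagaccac
Rgs12, plus strand, chr5:34998828-34999077: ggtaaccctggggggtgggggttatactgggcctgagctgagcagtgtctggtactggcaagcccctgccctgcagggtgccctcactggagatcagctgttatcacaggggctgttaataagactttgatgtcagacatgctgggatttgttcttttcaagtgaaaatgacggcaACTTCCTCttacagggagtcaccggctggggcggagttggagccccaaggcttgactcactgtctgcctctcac
Pfkfb1, plus strand, chrX:150594178-150594427: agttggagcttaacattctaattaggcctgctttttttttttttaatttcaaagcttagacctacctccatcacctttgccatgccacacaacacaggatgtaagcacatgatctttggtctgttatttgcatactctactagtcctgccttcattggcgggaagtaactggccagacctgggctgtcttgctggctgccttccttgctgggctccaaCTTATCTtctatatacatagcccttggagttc
Lyrm1, plus strand, chr7:119899861-119900110: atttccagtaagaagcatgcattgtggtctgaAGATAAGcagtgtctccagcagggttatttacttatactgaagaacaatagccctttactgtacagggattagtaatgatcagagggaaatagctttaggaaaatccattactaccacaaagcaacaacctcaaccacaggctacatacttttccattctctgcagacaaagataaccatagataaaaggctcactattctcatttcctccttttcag
The site at Ifit1bl1, a relative of the interferon-induced Ifit genes, holds both motifs and was 3553 bp wide untreated against 2106 bp treated. A treated width is that of all treated peaks that touch the site, taken whole, and such a peak can join several untreated ones. At Rassf5, which encodes a Ras and Rap effector of blood cells, the SPI1 match lies in a site of 2753 bp untreated and 2206 bp treated. At Rgs12, a regulator of G protein signalling, the widths were 1553 and 1453 bp. The site at Pfkfb1, which encodes an enzyme that sets the level of fructose 2,6-bisphosphate, measured 2903 and 4703 bp. That at Lyrm1, a small protein of the LYR family, measured 1753 and 4253 bp. Both hold a GATA match alone. Of the starts not shown, those of Thap4 and Armcx6 also had a GATA match alone, with 1003 and 2253 bp at the first and 1203 and 1003 bp at the second, and that of Ptgs1 had a SPI1 match, with 1803 and 1453 bp. Sites with a GATA match alone were thus found wider and narrower. Sites with a SPI1 match were also found both ways once starts of long non-coding RNAs were read. Those at Gm41558 and Gm40831 went from 1103 to 7503 bp and from 3853 to 6053 bp, and that at Gm34458 from 3853 to 2906 bp. The 5 starts shown are inside the annotated genes, away from their ends, as the selection required. All 5 are single examples, and a match is only a description of the letters.

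Over all 513 start windows in the sites, GC content had a median of 49.3% and the observed over expected CpG ratio a median of 0.266. The medians were 52.7% and 0.384 over all 32851 start windows, and 51.7% and 0.323 over the 806 windows in distal H3K4me1 sites acetylated in both lists. The 3 sets also differed in kind of gene. Starts of long non-coding RNAs made up 72.1% of the windows in the sites, 58.4% of those in acetylated sites and 35.3% of all. The part of this in the GC, CpG and motif values was not tested. The SPI1 motif GAGGAAGT occurred in 4.48% of the windows in the sites (2.86% to 6.65%), 4.09% of those in acetylated sites and 3.20% of all. The GATA motif AGATAAG occurred in 5.26% (3.50% to 7.57%), 6.33% and 3.04%. For the RUNX motif TGTGGTT the shares were 9.16% (6.81% to 12%), 5.21% and 5.27%. The ETS core CGGAAG, which contains a CpG, went the other way, with 7.99% (5.80% to 10.7%), 12% and 16.9%. The TAL1 E-box CAGATG was found in 20.9%, 17.7% and 17.2%, the E2A E-box CAGCTG in 17.7%, 18.6% and 16.3%, and the KLF1 motif CCACACCC in 2.73%, 4.34% and 3.56%. The AP-1 motif TGACTCA was found in 7.99%, 8.31% and 5.20%, and the composite motif of IRF and ETS factors in 1.36%, 0.620% and 0.731%. The CEBP motif TTGCGCAA was in 0 of the 513 windows (upper bound 0.717%) and in 0.183% of all. All motifs were read on both strands in the same 300 bp window. The composite can overlap either ETS motif.

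Hairpins of 29 microRNA genes of the 1005 in the RefSeq table lay in 26 of the sites, and mature sequences were found for 28 of them. The 5 hairpins in the widest sites are shown with 1 mature sequence each, together with let-7d and let-7g, which were added after their values were seen because they share a seed with let-7f. Capitals mark the seed, bases 2 to 8.
mmu-miR-9-5p: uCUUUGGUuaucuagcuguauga
mmu-miR-9b-5p: uUCGGUUAucuagcuuuauga
mmu-miR-3093-5p: cGCACCCCgcggagcucacacu
mmu-miR-6541: cACAGGCAaggacuucucaag
mmu-let-7f-5p: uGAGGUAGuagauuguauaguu
mmu-let-7d-5p: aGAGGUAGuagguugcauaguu
mmu-let-7g-5p: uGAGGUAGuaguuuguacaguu
The first 3 came from 1 site, chr3:88211649-88216501, which was 4853 bp wide untreated and 6953 bp treated and lay 33098 bp from the nearest H3K27ac peak. In it, Mir9-1, a microRNA best known from neural tissue, and the miR-9b hairpin lie on opposite strands of the same stretch. Mir6541, in Wdfy2, lay in a site of 3953 bp that had 1306 bp of treated peaks. The seed GAGGUAG was shared by let-7f, let-7d and let-7g, microRNAs that restrain proliferation in many tissues, and the 51 mature sequences held 49 different seeds, of which only this one occurred more than once. The let-7f-2 hairpin, in Huwe1, lay in a site of 4303 bp untreated and 4503 bp treated. The let-7d site, outside protein-coding genes, went from 1603 to 9856 bp, and the let-7g site, in Wdr82, from 1053 to 7703 bp. These treated widths are of whole peaks, which can join several untreated ones, and the untreated length under them is not given here. Of the 28 hairpins, 18 lay in a protein-coding gene and 10 outside, 5 were in a site at least 1.5-fold wider in the treated list and 2 in one at least 1.5-fold narrower, where 21.8% and 16.9% of all sites were.

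The share of distal H3K4me1 peaks that made up this class fell with width. Of peaks from 1000 to under 1500 bp, 77.9% were persistent and unacetylated. That share was 75.2% from 1500 bp, 60.5% from 2000 bp, 35.4% from 3000 bp and 11.3% from 5000 bp. The comparison class of 8660 sites that persisted and had H3K27ac in both lists had a median width of 3653 bp, against 1603 bp (interquartile range 1253 to 2203 bp) for the unacetylated sites. A further 3246 sites had H3K27ac in the untreated list alone, 1563 in the treated list alone, and 2586 unacetylated sites had no treated counterpart. Untreated width and the presence of a counterpart and of H3K27ac were set by the selection, so these values are a description.

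**Figure D1:**
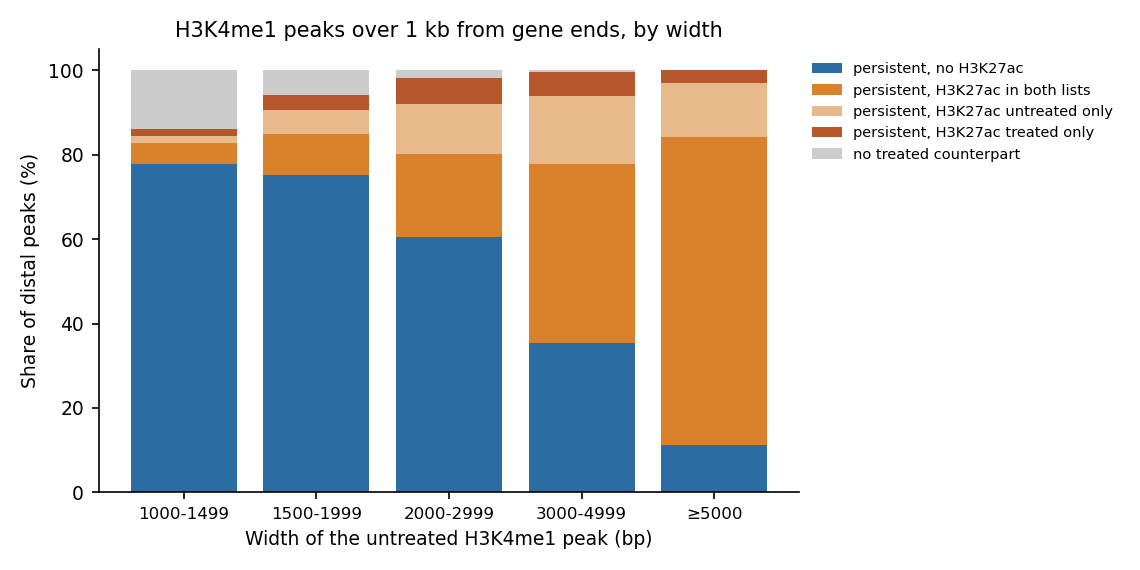
Share of untreated H3K4me1 peaks more than 1 kb from gene ends (vertical axis, %) in 5 classes, by peak width (horizontal axis, bp). The blue share, persistent without H3K27ac, is 77.9% in the narrowest group and 11.3% in the widest.

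The width threshold cut through a dense part of the distribution. At the narrowest width kept, 1003 bp, there were 1330 sites, and 1511 otherwise alike were left out at 953 bp. The first 3 just inside by genome order were chr1:6224899-6225901, chr1:13404999-13406001 and chr1:13497449-13498451, with 1353, 753 and 803 bp of treated peaks. The first 3 just outside were chr1:9752399-9753351, chr1:9911199-9912151 and chr1:13135699-13136651, with 453, 1203 and 803 bp. In all, 28343 narrower sites met every other criterion.

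The 8 widest sites were 10653 to 13553 bp wide in the untreated list, and 7 of them lay in a gene. The widest, chr5:115028699-115042251, lies in Sppl3, which encodes a signal peptide peptidase-like protease. It was 13553 bp wide untreated, and 3 treated peaks of 14059 bp in all covered 95.2% of it. The next, chr13:111464199-111477401 in Gpbp1, went from 13203 to 31306 bp. A site in Pde4d, a cyclic AMP phosphodiesterase, went from 12703 to 23556 bp and lay 244768 bp from the nearest gene end. The others were an intergenic site nearest to Fam174a, with 10803 and 19906 bp, and sites in Pkn2, with 10803 and 11406 bp, Chsy1, with 10753 and 12203 bp, Srgap2, with 10653 and 7659 bp, and Chchd3, with 10653 and 17003 bp. Thus 7 of these 8 sites had a ratio above 1, and that in Srgap2 had one of 0.719. Only those in Gpbp1, Pde4d and Chchd3 and that nearest to Fam174a were at least 1.5-fold wider, as were 21.8% of all sites. The ratios in Sppl3, Pkn2 and Chsy1 were 1.04, 1.06 and 1.13. Treated peaks covered 71.9% to 98.5% of each of the 8. Each kept a distance of 998 to 19198 bp from H3K27ac in both lists.

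Across all sites, the treated counterpart (the summed width of all treated peaks that touch the site) had a median of 1753 bp (interquartile range 1153 to 2803 bp), and the ratio of treated to untreated width a median of 1.04 (0.774 to 1.41). Treated peaks covered a median of 90.0% of a site. They covered 34.0% of the sites in full and under 50% of the length in 10.1%. At least 1.5-fold wider were 5533 sites, or 21.8% (21.3% to 22.4%), where 22.5% of all untreated H3K4me1 peaks of at least 1000 bp with a counterpart passed this fold. At least 1.5-fold narrower were 4288 sites, or 16.9% (16.5% to 17.4%), against 10.3% of all such peaks. The share wider was thus near that of all wide peaks, and the share narrower was above it.

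Sites acetylated in both lists were wider in the treated list more often than the unacetylated ones and narrower less often. Their median ratio was 1.16, 27% were at least 1.5-fold wider and 0.843% at least 1.5-fold narrower. On 20 of 20 chromosomes (Y left out) the median ratio and the share wider were lower, and the share narrower higher, in the unacetylated sites. At like width the order was the same. From 1000 to under 1500 bp, 26.4% of the unacetylated and 46.0% of the acetylated sites were wider, 17.4% and 0.726% narrower, and the median ratios were 1.08 and 1.43. From 3000 to under 5000 bp the shares wider were 16.5% and 26.2%, the shares narrower 13.4% and 0.888%, and the median ratios 1.00 and 1.16. At 5000 bp and above the shares wider were close, 18% and 18.4%, while 8.75% and 0.547% were narrower. Sites that lost H3K27ac from the list, those acetylated untreated alone, had a median ratio of 0.937, and those acetylated treated alone one of 1.66.

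**Figure D2:**
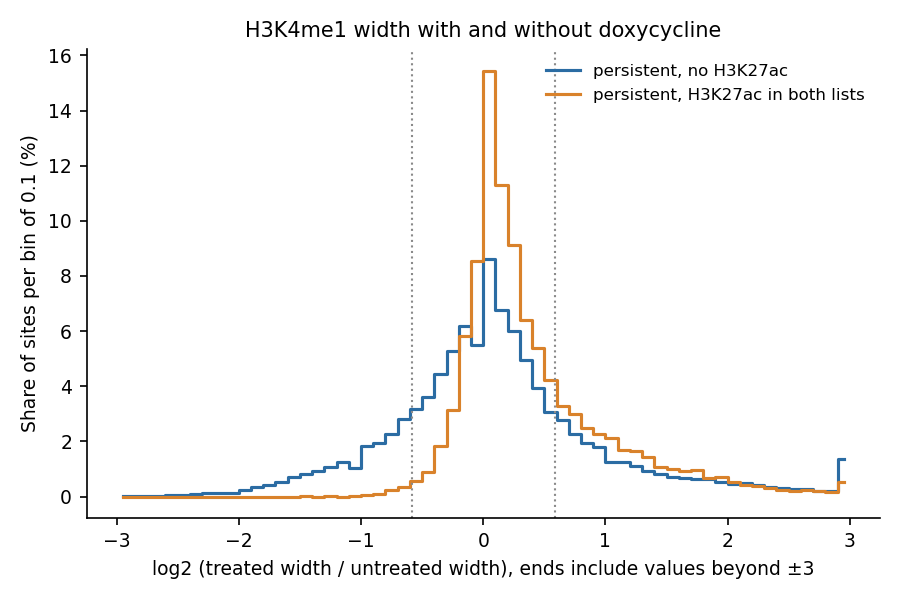
Distribution of log2 treated over untreated H3K4me1 width (horizontal axis) as share of sites per bin of 0.1 (vertical axis, %) for unacetylated sites (blue) and sites acetylated in both lists (orange). Dotted lines mark 1.5-fold, and the blue curve has the larger share to the left of the lower line, 16.9% against 0.843%.

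The share that was wider differed with how peaks met between the lists. For 19293 sites, or 76.2%, a single untreated peak met a single treated peak. Their median ratio was 0.957, with 8.68% wider and 20.6% narrower. For 4843 sites, or 19.1%, the treated counterpart also covered another untreated peak, and here the median ratio was 2.32, with 79.2% wider and 0.661% narrower. Sites in such a fused peak share its width, so they are not separate observations of it. The 4069 treated peaks that joined untreated peaks around these sites had a median width of 3953 bp. The untreated peaks that touched each, taken whole, summed to a median of 3659 bp. Set against that sum, a measure added after seeing the data, their median ratio was 1.12, with 12% at least 1.5-fold wider and 11.8% narrower. The sum counts untreated length beyond the treated peak, so this ratio can be too low and the share narrower too high. A site in a joined peak can still be many-fold wider by its ratio where the untreated peaks around it already summed to a similar length. In 1920 sites (7.58%) the counterpart consisted of more than 1 treated peak.

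The label of the sites holds within their untreated bounds only. In 1820 sites, or 7.18%, the treated counterpart reached an H3K27ac peak of either list outside the site, and their median ratio was 3.91. Without them, 23513 sites had a median ratio of 1.00, with 16.1% wider and 18.2% narrower.

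The 5 sites with the largest gain in counterpart width all lay in treated peaks that joined several untreated ones. In Mbnl1, a splicing regulator, a site of 6703 bp lay in a treated peak of 92753 bp, where 4 untreated peaks already summed to 93812 bp. A second site there, of 6153 bp, touched this peak and its neighbour of 16703 bp, 109456 bp in all. The untreated peaks that touched the neighbour summed to 21059 bp, taken whole, with this second site counted in both sums. In Cyth3, a site of 2703 bp lay in a treated peak of 61803 bp, against 59959 bp in 3 untreated peaks. In both lists the summed H3K4me1 length was thus about equal at the peaks of 92753 and 61803 bp. At the neighbour in Mbnl1 the lists cannot be compared by this sum, which includes length outside it. In Sptb, 2 sites of 1103 and 1303 bp lay in a treated peak of 49403 bp, chr12:76659549-76708951, which overlapped 13 untreated peaks of 43939 bp in all, 7 of them unacetylated sites, a 1.12-fold difference. Where 1 peak met 1 peak, the 5 largest rises were 4200 to 6150 bp. The 5 largest falls cannot be compared in size with the gains in joined peaks. A fall is at most the site's own untreated width, while such a gain takes in the whole joined peak. A site in Itpr2, an inositol trisphosphate receptor gene, fell from 6453 to 1553 bp, and 1 in Gatb from 6853 to 2559 bp. The others were in Stk10, from 6253 to 2206 bp, Pias1, from 5903 to 2053 bp, and Ssh2, from 4253 to 403 bp.

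The sites lay at a median of 10548 bp from the nearest H3K27ac peak of either list, with 25398 bp at the upper quartile. Within 1000 bp there were 738 sites (2.91%), within 5 kb 29.0%, within 50 kb 88.5%, and 1119 sites (4.42%) were more than 100 kb away. Unacetylated sites without a treated counterpart lay further off, at a median of 13373 bp.

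The H3K4me1 width of a site differed with the H3K27ac peaks beside it. H3K27ac lay within 5 kb in both lists at 5153 sites, in the untreated list alone at 1469, in the treated list alone at 717 and in neither at 17994. Beside H3K27ac of the treated list alone, the median ratio was 1.43, and 48.1% of sites were wider and 6.42% narrower. Beside H3K27ac of the untreated list alone, it was 0.947, with 18.7% wider and 23.7% narrower. With H3K27ac in both lists it was 1.15, and with none 1.00. The order of the first 2 groups was the same on 20 of 20 chromosomes. Among sites where 1 peak met 1 peak the medians were 1.12 beside treated-only, 0.862 beside untreated-only, 0.958 beside both and 0.959 beside neither, again with the same order on 20 of 20 chromosomes. The sites themselves had no H3K27ac peak in any of these groups.

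**Figure D3:**
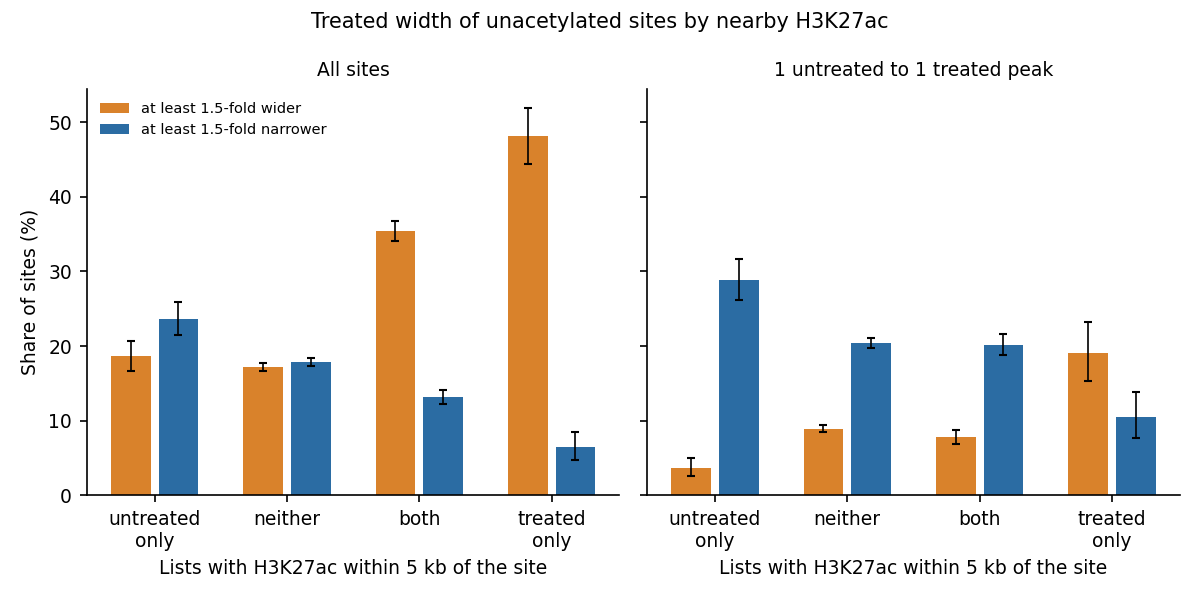
Share of sites (vertical axis, %) at least 1.5-fold wider (orange) or narrower (blue) in the treated H3K4me1 list, by the lists with an H3K27ac peak within 5 kb (horizontal axis). Bars on the left are all sites and on the right those where 1 peak met 1 peak, error bars are exact 95% intervals, and the share wider is highest beside treated-only H3K27ac, 48.1% on the left and 19.0% on the right.

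The widths also differed with the state of the nearest gene end. The nearest protein-coding gene had H3K27ac within 1000 bp of an end in both lists for 68.7% of sites and in neither for 28.0%, where 44.8% and 52.5% of all protein-coding genes were in these states. The median ratio was 1.20 at the 335 sites nearest to a gene acetylated in the treated list alone and 0.909 at the 507 nearest to 1 acetylated in the untreated list alone. It was 1.04 for genes acetylated in both and 1.02 for neither. The order of the 4 groups was the same as for H3K27ac within 5 kb.

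Gene bodies held 15459 sites, or 61.0%, and 9874 sites lay outside protein-coding genes. The share in gene bodies was 66.9% for sites acetylated in both lists, higher than for the unacetylated ones on 19 of 20 chromosomes. This order did not hold at like width. In the 5 width groups, from narrow to wide, the unacetylated shares were 57.1%, 59.2%, 64.8%, 72.2% and 84.4%. The acetylated shares were 64.9%, 62.7%, 61.0%, 64.2% and 74.9%, so the order was reversed from 2000 bp up. A RefSeq start window lay in 447 unacetylated sites (1.76%) and in 7.39% of those acetylated in both lists, and at 1000 to under 1500 bp of width the shares were 1.27% and 4.21%. At least 1 site lay in the body of 6154 of 21887 protein-coding genes, or 28.1%, and 66.7% had 1 in the body or within 50 kb. The share of genes with a site was 2.44% under 10 kb, 27.5% from 10 kb, 55.2% from 30 kb and 59.8% from 100 to under 300 kb, and it was lower again, 46.9%, for genes of at least 300 kb. Sites per 100 kb of gene were most frequent from 30 to under 100 kb, at 2.32, and fell to 0.480 in the longest genes. Of genes with H3K27ac at an end in both lists 42.4% held a site, and of those with none 15.3%. At least 5 sites were found in 850 genes, at least 10 in 162 and at least 20 in 8.

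The 10 genes with the most sites were 296 to 1302 kb long. Dennd1a, a guanine nucleotide exchange factor for a Rab GTPase (488 kb), held 37 sites. Their untreated widths ran from 1053 to 4353 bp with a median of 2053 bp, and the treated widths from 603 to 13556 bp with a median of 2653 bp. Of these, 15 were at least 1.5-fold wider and 3 narrower, beside 21.8% and 16.9% over all sites. Nfia, a transcription factor with a role in erythroid fate, held 29 sites, 9 wider and 5 narrower, with no H3K27ac at either gene end in either list but 28 and 20 H3K27ac peaks in its body. Gmds, an enzyme of GDP-fucose synthesis, held 28, with 8 wider and 4 narrower. Pde4d held 26, with 4 and 5. Rabgap1l, a Rab GTPase activating protein, held 25, with 1 wider and 8 narrower, and its H3K27ac peaks numbered 18 untreated and 7 treated. Nckap5 held 23, with 5 and 3, and Snd1, a nuclease and coactivator, 22, with 2 and 8. The calcium channel gene Cacna1c held 21, with 2 and 4, Asap1, an Arf GTPase activating protein, 19, with 9 and 1, and Prkca, protein kinase C alpha, 19, with 2 and 4. Prkce, St6galnac3 and Tcf12 held 19 sites as well, and the tie was broken by summed width.

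The longest run of sites less than 10 kb apart was also in Dennd1a: 15 sites over 74.3 kb, chr2:38171799-38246051. Of these, 12 were wider and 1 narrower, with a median ratio of 2.33, beside 21.8% and 16.9% of all sites. Sites of a run can share a joined treated peak, and how many did here is not given. Of the 37 sites in the gene, 21 were 1 peak to 1 peak, with a median ratio of 1.11. The next was a run of 14 sites between genes near Trim27 and Gpx5, with 6 wider and 1 narrower. Runs of 13 sites in Srgap2 and of 12 each in Raly and Kat6b followed, with median ratios of 1.00, 1.35 and 1.01. In all, 11465 sites (45.3%) stood alone, and 347 runs of at least 5 held 8.22% of the sites.

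Among genes with at least 10 sites, examples with a large share of sites changed in 1 direction were picked after their values were seen. Sox6, a transcription factor of erythroid maturation, held 17 sites with untreated widths of 1103 to 2503 bp (median 1353) and treated widths of 1103 to 25853 bp (median 3003). Of these, 13 were at least 1.5-fold wider and 0 narrower, and the 9 where 1 peak met 1 peak had a median ratio of 1.89. A gene end of Sox6 had H3K27ac in the treated list alone. In Hipk2, a kinase of transcription factors, 11 of 13 sites were wider. Only 2 of those 13 were 1 peak to 1 peak, and these had a median ratio of 0.794, below 1. In the other direction, 10 of 16 sites in Fut8, the core fucosyltransferase, were narrower, with untreated widths of 1303 to 8853 bp (median 2978) and treated widths of 403 to 6012 bp (median 1956). In Gab2, an adaptor downstream of cytokine receptors, 6 of 12 sites in the gene were narrower and 0 wider, and all 12 were 1 peak to 1 peak. Chchd3, with 7 of 14 sites narrower, and Myom1, with 6 of 12, had the same share narrower as Gab2.

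Sites were then described by 15 gene lists, counting those in a gene or within 50 kb of it, since most sites lie outside the short genes of several lists. Such a site was found for 66.7% of all protein-coding genes, 96.4% of the housekeeping list and 93.8% of Polycomb and HDAC complexes. The list of red cell structure and haem genes had 194 such sites near 44 of 49 members (89.8%). Of these sites, 47.4% were at least 1.5-fold wider (40.2% to 54.7%) and 5.67% narrower, with a median ratio of 1.47, beside 21.8%, 16.9% and 1.04 over all sites. Where 1 peak met 1 peak, 107 sites were left, with 16.8% wider (10.3% to 25.3%), 9.35% narrower and a median of 1.05, beside 8.68%, 20.6% and 0.957 over all such sites. Without Sptb the share wider was 45.8%. The 58 treated peaks that joined untreated peaks at these sites had a median ratio to the summed untreated width of 1.17, beside 1.12 over all joined peaks. Of the 58, 22.4% were wider and 12.1% narrower. The sum again takes untreated peaks whole, so these ratios can be too low.

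Sptb, which encodes the beta spectrin of the red cell membrane skeleton, had 15 sites, 10 of them wider and 1 narrower. The 7 sites inside the joined treated peak of 49403 bp, which lay over 43939 bp of untreated peaks, were 1953, 1553, 1103, 7003, 4103, 1303 and 3253 bp wide in the untreated list. Those between this peak and the far end of the gene, and beyond it, were mixed. Sites of 1903 and 1353 bp lay in treated peaks of 7753 and 3703 bp, which joined untreated peaks of 5359 and 2306 bp in all. Another of 1903 bp became 1053 bp, where 1 peak met 1 peak. Epb41, protein 4.1 of the same skeleton, had 11 sites, of which 6 were wider and 0 narrower. Of these 6, only the site that went from 1353 to 4353 bp was 1 peak to 1 peak. A site of 2603 bp lay in a treated peak of 10103 bp over 10006 bp of untreated peaks. Sites of 2903, 1753 and 3203 bp, counted as wider, touched a treated peak of 3253 bp. The 4 untreated peaks that touched it summed to 8312 bp taken whole. At most 3253 bp of that can lie inside it, so this sum does not show a loss. Other members, named after their values were seen, were Alas2, the first enzyme of erythroid haem synthesis, with 6 of 8 sites wider, Tmod1, tropomodulin, with 5 of 6, and Slc2a1, a glucose transporter, with 0 of 7.

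Erythroid transcription factors had 95 sites near all 15 members, where 66.7% of all protein-coding genes had such a site. Of the 95 sites, 34.7% were wider (25.3% to 45.2%) and 13.7% narrower, with a median ratio of 1.21. Where 1 peak met 1 peak, 15.8% of 57 sites were wider and 19.3% narrower with a median of 1.00, beside 8.68%, 20.6% and 0.957 over all such sites, so the share narrower was then the larger. Nfia supplied 30 of the 95, with 9 wider and 6 narrower. Foxo3, a forkhead factor of late erythroid cells, supplied 10, with 7 wider and 0 narrower. Of these, sites of 3253, 1053, 1353 and 3103 bp joined in 1 treated peak of 29053 bp, which overlapped 6 untreated peaks of 21318 bp in all.

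Genes of cytokine signalling carry the erythropoietin signal among others. A site lay near 35 of 39 members (89.7%), beside 66.7% of all protein-coding genes. Their 193 sites were wider in 11.9% (7.71% to 17.3%) and narrower in 21.2% (15.7% to 27.7%), with a median ratio of 0.963. The interval of the share narrower includes the 16.9% of all sites, and that of the share wider lies below 21.8%. Where 1 peak met 1 peak, 3.18% of 157 sites were wider and 22.9% narrower, beside 8.68% and 20.6% over all such sites. Gab2 had 16 sites within 50 kb, of which 6 were narrower and 0 wider. The 6 went from 2103 to 753 bp, 4903 to 2253 bp, 2503 to 653 bp, 2653 to 1303 bp, 2053 to 1253 bp and 2003 to 953 bp, and each was 1 peak to 1 peak. Gab2 had 10 H3K27ac peaks in its body untreated and 4 treated. At Lyn, a Src family kinase, 7 of 12 sites were narrower and 1 was wider, among them 1553 to 353 bp, 1103 to 503 bp and 1353 to 553 bp.

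**Figure D4:**
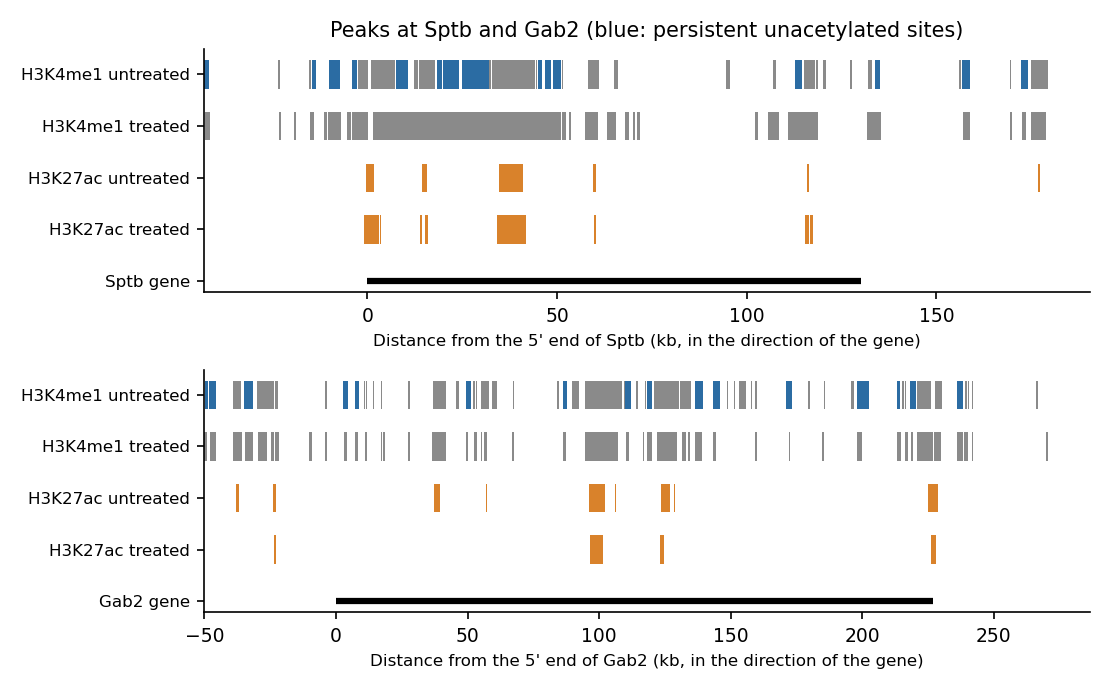
Peaks at Sptb (top) and Gab2 (bottom) against distance from the 5′ end of the gene (horizontal axis, kb), with H3K4me1 in grey, unacetylated sites in blue and H3K27ac in orange, 1 row per list. At Sptb 7 blue sites lie under 1 treated peak of 49403 bp, and at Gab2 the treated peaks under the blue sites are separate and in part narrower.

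Genes of blood progenitors had 118 sites, with 18.6% wider, 15.3% narrower and a median ratio of 0.922. Fli1, an ETS factor, had 14, with 4 wider and 2 narrower. Meis1, a homeobox factor of progenitors and leukaemia, had 13, with 0 wider and 3 narrower, and all 13 were below a ratio of 1. None of the 4 wider sites at Fli1 was 1 peak to 1 peak, while all 13 at Meis1 were. At Meis1 the widest site went from 5003 to 4853 bp and the largest relative fall was from 2253 to 1253 bp. Spi1, the hairpin's target and a member of this list, had 5 sites in the gene or within 50 kb, with 3 wider, 1 narrower and a median ratio of 1.59. Histone marks at Spi1 do not measure the knockdown, since the hairpin acts on the transcript and the cells carry a transgene.

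Myeloid genes had 118 sites near 41 of 50 members (82.0%, beside 66.7% of all protein-coding genes). Of these sites 22.9% were wider (15.7% to 31.5%) and 18.6% narrower, with a median ratio of 1.07, all close to the values over all sites. The Src family kinase gene Fgr had 11 sites, with 3 wider and 3 narrower, and the integrin gene Itgb2 had 8, with 0 and 4. In Fgr both sites inside the gene were narrower, 1253 to 503 bp and 1003 to 403 bp. Of other blood lineages, 46 sites near B cell genes were wider in 8.70% (2.42% to 20.8%) and narrower in 13.0%, with Blnk at 7 sites and Ebf1 at 4. T and NK cell genes had 51 sites, with 19.6% and 23.5%, and Il2ra and Prkcq, with 8 and 7 sites, led them. Megakaryocyte genes had 48 sites, with 18.8% and 25%, led by Vwf and Gp5 with 6 each.

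Sites were also found near genes of tissues foreign to these cells. Stromal and endothelial genes had 36 sites near 11 of 20 members, with 11.1% wider and 30.6% narrower (16.3% to 48.1%) and a median ratio of 0.786, the lowest of the 15 lists. Pdgfrb, a growth factor receptor of pericytes, had 5 sites, 4 of them narrower. Of the 5, 4 lay in the adjacent myeloid gene Csf1r or within 50 kb of it and count for that list too. Pecam1 had 7, with 1 wider and 2 narrower. Developmental transcription factors had 63 sites near 24 of 45 members (53.3%, also below 66.7%), with 14.3% wider and 12.7% narrower. There Hoxc10 had 7 sites and Lhx2 6, with 4 of the 6 wider. Neuronal genes had 93 sites near 12 of 30 members (40.0%, the lowest share of the 15 lists). Of the 93, Cacna1c and Nav2 had 21 and 18, and 18.3% were wider and 11.8% narrower.

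The other 4 lists had shares wider between 24.8% and 27.8%, with intervals that include 21.8%. For cell cycle genes (115 sites) the share was 27.8%, for apoptosis genes (92) 27.2%, for Polycomb and HDAC complexes (127) 25.2% and for housekeeping genes (105) 24.8%. Their leading members were Rb1, the retinoblastoma protein, with 12 sites, 5 wider and 1 narrower, and Cdk6 with 9. The apoptosis list was led by Fasl and Bcl2l11 with 8 and 7, and the last 2 lists by Ncor1 and Ezh1 with 10 and 9, and Rab7 and Emc7 with 11 and 7. Sites near neighbouring genes can count for more than 1 list.

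**Figure D5:**
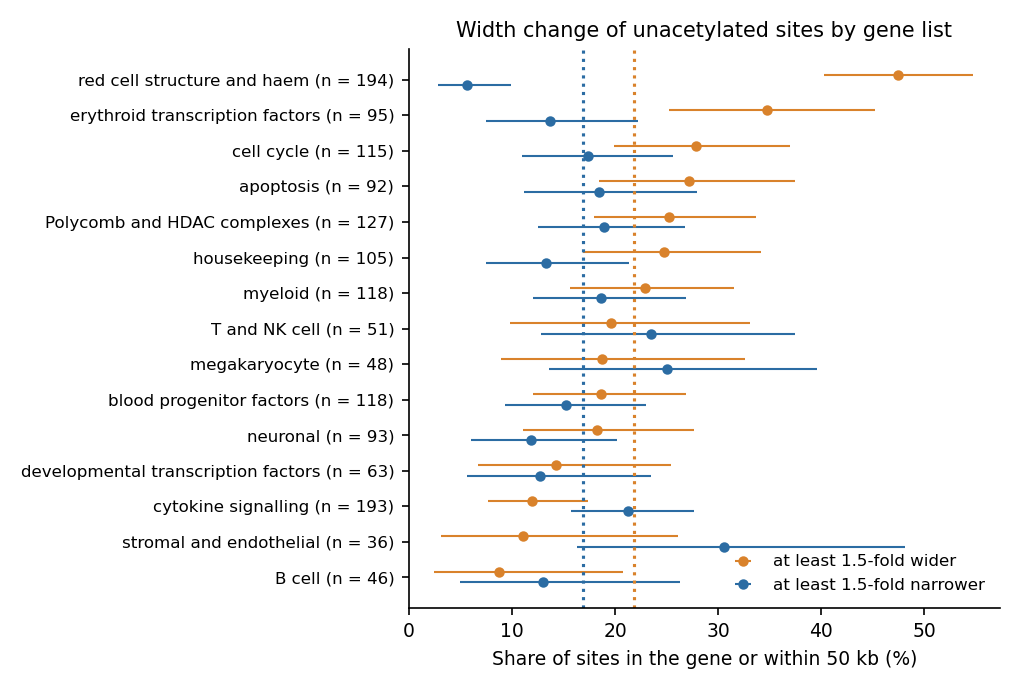
Share of sites in or within 50 kb of the genes of 15 lists (horizontal axis, %) that were at least 1.5-fold wider (orange) or narrower (blue) in the treated list, with exact 95% intervals and n as the number of sites. Dotted lines are the shares over all sites, 21.8% and 16.9%, and the red cell list stands at 47.4% and 5.67%.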

How the data were processed

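Peak lists of H3K27ac and H3K4me1 in untreated and doxycycline-treated cells were used, and the other samples were not analysed here. Per the submitters' processing notes, bcl2fastq 2.17.1.14, BWA and mm10 were used. Which caller and thresholds gave the peaks, and how 2 H3K27ac replicates became 1 list, is not given in the sources used here. Deposited H3K27ac files give a width in bp. The H3K4me1 files as deposited give a score of the authors, which served only to find the better 50% of peaks, and a column that may be a p-value, not used. No depth is known.

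The members and gene lists were chosen with earlier results of these data known. Named genes were the 8 widest sites, the 5 largest rises and falls, the 10 genes with most sites, the 5 longest runs, the 2 leading members of each list and the 5 hairpins in the widest sites. Gene positions and sequences came from RefSeq (GRCm38.p6). Sequences at site centres were planned and replaced by start windows, since no genome was used here. The overlap code (scipy 1.17.1, pandas 2.3.3 and numpy 2.4.6 under Python 3.11.15) was tested on simulated data and checked with bedtools 2.31.1, and matplotlib 3.10.9 drew the figures. No test was possible with 1 list per mark and condition, so values are descriptions.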

Additional observations from a re-analysis of the deposited data

How the results depend on the processing

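No paired analysis was possible because each list stands for 1 replicate or for both together, so leaving out a replicate was not possible either, and no value has a test. Values named as moved lie outside the exact 95% interval of the reported value, or for the number of sites beyond 1.5 times. The shares at least 1.5-fold wider and narrower over all sites, given in that order, were 31.4% and 12.9% with a minimum width of 500 bp (43136 sites) and 16.8% and 15.4% with 2000 bp (7978 sites). They were 23.8% and 9.10% with 50% of the site covered by treated peaks, 11.5% and 10.1% with a reciprocal overlap of 50%, 17.2% and 17.9% with no H3K27ac within 5000 bp, 28.4% and 5.26% in the better 50% of each H3K4me1 list, and 19.5% and 22.6% with peaks within 1000 bp merged. The share narrower thus exceeded the share wider in the last of these and with no H3K27ac within 5000 bp. Some alternatives were chosen after seeing the data. Here the shares were 8.68% and 20.6% where 1 peak met 1 peak, 16.1% and 18.2% with treated counterparts free of H3K27ac, and 28.5% and 10.8% for sites taken from the treated list by the same criteria. In the first 2 of these the share narrower was again the larger.

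The share in gene bodies stayed between 58.4% and 67.9%: 59.4% and 67.9% for minimum widths of 500 and 2000 bp, 59.3% with the reciprocal overlap, 62.6% over 5000 bp from gene ends, 61.7% in the better 50%, 58.5% merged, 58.4% for 1 peak to 1 peak, 60.0% with counterparts free of H3K27ac and 59.8% from the treated list. In the same order the median distance to H3K27ac was 10998, 9548, 11798, 12148, 9948, 13598, 12298, 11898 and 11498 bp, and it was 17273 bp where no H3K27ac within 5000 bp was allowed. Autosomes alone and H3K27ac peaks of at least 200 bp moved none of the values given here.

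All settings for the next 4 shares were chosen after seeing the data. The share wider near red cell genes (47.4%) was 23.1% with the reciprocal overlap, 16.8% for 1 peak to 1 peak, 35.0% with counterparts free of H3K27ac and 36.5% from the treated list. The share narrower near cytokine signalling genes (21.2%) was 11.2% with 50% covered, 10.6% with the reciprocal overlap, 8.27% in the better 50% and 28.9% merged, where the shares over all sites were 9.10%, 10.1%, 5.26% and 22.6%. Beside treated-only H3K27ac the share wider (48.1%) was 57.6% and 36.6% for minimum widths of 500 and 2000 bp, 18.4% with the reciprocal overlap, 53.2% in the better 50%, 19.0% for 1 peak to 1 peak and 27.4% with counterparts free of H3K27ac. Beside untreated-only H3K27ac the share narrower (23.7%) was 18.9% and 21.1% for the 2 widths, 13.0% with 50% covered, 13.4% with the reciprocal overlap, 7.94% in the better 50%, 28.7% merged, 28.9% for 1 peak to 1 peak and 26.5% with counterparts free of H3K27ac. Of 165 shares of list genes with a site under other settings, 157 lay within the interval of the reported share and 8 below it, 6 of them at 2000 bp. Motifs in windows of 200 and 1000 bp at site centres were not run. The cause of these differences was not tested. Read depth is unknown and limits what a missing peak can show.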
